A study of Oryctolagus cuniculus with 4 samples.

Results

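The interleukin and interleukin receptor genes were taken as every row of the deposited table whose gene symbol starts with IL and a digit, which gave 55 of 13913 genes. Only 10207 of the genes carried a symbol, and a gene without one could not be matched. The values came from single-cell RNA sequencing libraries (10x Genomics) of rabbit ear hypertrophic scar (HS), the raised scar that forms after repeated wounding of the ventral ear skin. All rabbits were wild type (WT) and female, and were bought at an age of 10 to 12 weeks. Both groups carried the same scar model. The HS group was left untreated (2 libraries), and the drug-loaded MNs group received patches of separating microneedles (MNs) once a week for 3 weeks (2 libraries). The tips of these MNs stay in the tissue and release a derivative of 5-fluorouracil, a drug that blocks thymidylate synthesis. Scars with drug-free MNs were not analysed here, so the needles and the drug cannot be told apart. Each library came from 1 piece of scar. The study calls the samples of a group biologically independent, but the labels do not tie them to animals, so p-values measure the spread between these samples.

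Interleukins are secreted proteins by which immune cells, keratinocytes and fibroblasts instruct each other, and each acts through a receptor built from a ligand-binding chain and a signalling chain that several cytokines share. In skin, keratinocytes store interleukin-1 alpha and release it on injury, whereas interleukin-1 beta is made mainly by activated myeloid cells. Several members hold these signals back, either as receptor antagonists (IL1RN, IL36RN) or as receptors and binding proteins that capture a cytokine without the usual signal (IL1R2, IL13RA2, IL18BP, IL22RA2). Interleukin-4 and interleukin-13 are known for driving fibrosis, and the study of these scars asked how drug-loaded MNs act on inflammation, including the IL-1 receptor pathway.

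The deposited values are relative expression, 1 value per gene and library, and 1 unit below is 1 part in 1000000 of what a library holds in all. They carry no correction for gene length that could be verified, so levels of different genes are not ranked as molecules. A value over a whole library also cannot tell fewer cells of a type from less RNA per cell. Depth was unknown, and the genes above 0 numbered from 11844 to 12059 per library. The share of mitochondrially encoded genes was 2.75% and 2.80% for HS, and 4.37% and 4.58% for drug-loaded MNs. HS replicate 1 stood apart on the first principal component (43.0% of the variance), at -37.2, while the other libraries lay between 0.95 and 18.3, and results that rest on it are given without it below.

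All 55 members had a value above 0 in at least 1 library, and 36 of them had a mean of at least 1 unit and entered the test (18 ligands or antagonists and 18 receptors). Together the 55 members took 978 and 1160 units in HS and 1150 and 1255 units in drug-loaded MNs. In limma, none of the 36 passed an adjusted p of 0.05, where the background over all 9348 tested genes was 0.0428%. The lowest adjusted p among members was 0.344. At an unadjusted p under 0.05, 7 members were higher in drug-loaded MNs (19.4% of 36, against 7.26% of all tested genes) and 1 was lower (2.78%, against 1.39%). In either direction these were 8 of 36, against 8.65% of all tested genes. The higher members were IL17RD, IL1RL1, IL13RA2, IL1B, IL1R2, IL7R and IL1F10, and the lower one was IL1A. Of these, IL1F10 passed the filter only through the drug-loaded MNs group. Among the 34 members with a mean of at least 1 unit in each group, 6 were higher (17.6%) and 1 was lower (2.94%). Leaving out drug-loaded MNs replicate 1 left 4 of 36 members (11.1%), against 507 of 9290 genes (5.46%) in the same fit. Without HS replicate 2 there were 7 of 39 members (17.9%), against 15.0% of genes.

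In 16 of the 36 members the libraries of both groups were fully apart. In 11 of them both drug-loaded MNs libraries lay above both HS libraries (30.6%, against 26.6% of all tested genes), and in 5 they lay below (13.9%, against 11.2%), so these shares were near the background. The log2 fold change was above 0 in 22 of 36 members, against 64.6% of all tested genes. Its median was 0.32 over the tested members, beside 0.12 for all tested genes. With 1 library left out it fell to between 0.10 and 0.25, beside 0.04 to 0.19 for all genes, and it lay below the median of all genes without HS replicate 2 (0.16 beside 0.19) and without drug-loaded MNs replicate 2 (0.13 beside 0.18). Median ratio scaling gave 0.18 and quantile normalization 0.14, beside -0.01 and -0.02 for all genes. With all 4 libraries it was 0.37 for receptors and 0.31 for ligands and antagonists. The ligand median depended on single libraries, since it was -0.05 when HS replicate 2 was left out and -0.02 when drug-loaded MNs replicate 2 was. The receptor median was 0.03 without HS replicate 1, beside 0.04 for all genes. It was 0.53 without HS replicate 2, and 0.34 and 0.25 without drug-loaded MNs replicates 1 and 2. IL1F10 and IL18R1 reached the mean of 1 unit only through the drug-loaded MNs group, so the filter itself favoured their direction. Without them, 9 of 34 members lay above (26.5%, against 26.6% of all tested genes) and 5 lay below (14.7%, against 11.2%). Among all 55 members with no filter, 19 lay above (34.5%, against 25.2% of 12679 genes) and 6 below (10.9%, against 10.8%). At an unadjusted p under 0.05 in this unfiltered fit, 12 members were higher (21.8%, against 6.59%) and 2 lower (3.64%, against 1.67%), with no adjusted p under 0.05.

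**Figure D1:**
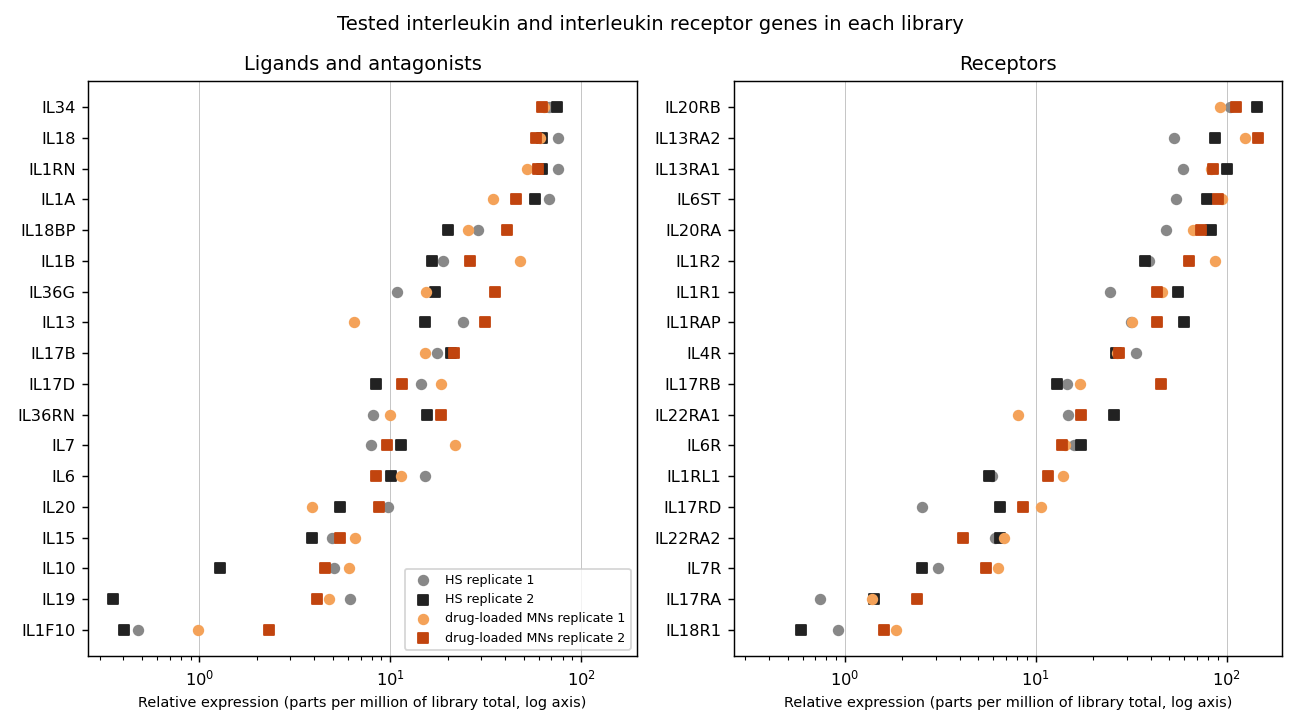
Relative expression of the 36 tested members in each of the 4 libraries (log axis, units), with ligands and antagonists on the left and receptors on the right, each ordered by the mean of the 4 libraries. Most members spread over less than the width of 1 decade, and IL19 and IL10 stand out by a low value in HS replicate 2, at 0.354 and 1.28 units.

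The IL-1 ligands differed in direction. IL1A, the interleukin-1 alpha of keratinocytes, stood at 68.2 and 57.5 units in HS and at 34.5 and 45.7 units in drug-loaded MNs. Both treated libraries were below both untreated ones, with means of 62.8 ± 7.62 and 40.1 ± 7.94 (SD, n = 2 each). Its log2 fold change came to -0.64 (SE 0.25, limma unadjusted p 0.0346, adjusted p 0.517). IL1B, the interleukin-1 beta of myeloid cells, had the opposite order. Its values were 19.0 and 16.6 units in HS and 47.6 and 26.2 units in drug-loaded MNs, so the groups did not overlap, although the treated libraries were far from each other. The log2 fold change was 0.95 (SE 0.32, limma unadjusted p 0.0198, adjusted p 0.435). Leaving out drug-loaded MNs replicate 1 gave 0.54, and leaving out replicate 2 of that group gave 1.37.

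Because both values come from the same library, the ratio of IL1B to IL1A does not depend on how the library was scaled. It was 0.278 and 0.289 for the HS libraries, and 1.38 and 0.573 for the treated ones. The HS libraries were close to each other and both treated ones were higher. This ratio and the other 11 below were chosen after the values were seen and were not tested, since with 2 libraries a group the smallest two-sided p of an exact permutation test is 0.333.

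IL1RN encodes the antagonist that occupies the IL-1 receptor without signalling. It stood at 75.4 and 62.2 units in HS and at 51.9 and 59.5 units in drug-loaded MNs, and the groups did not overlap (log2 fold change -0.30, limma adjusted p 0.809). IL1A differed by more in proportion, so the ratio of IL1RN to IL1A was 1.10 and 1.08 in HS, against 1.502 and 1.30 after treatment. Against IL1B the antagonist had the opposite order, with ratios of 3.97 and 3.74 in HS against 1.09 and 2.27 after treatment.

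Among IL-1 receptors, the decoy was higher and the signalling chains overlapped. IL1R2, the decoy that binds interleukin-1 without passing a signal, stood at 39.1 and 37.4 units in HS and at 87.4 and 63.5 units in drug-loaded MNs. The HS libraries were close to each other and both treated libraries were well above them. Its log2 fold change of 0.94 (SE 0.25) had the lowest unadjusted p of the members (limma unadjusted p 0.00587, adjusted p 0.344). IL1R1, the signalling receptor, stood at 24.5 and 55.5 units in HS and at 46.1 and 43.2 units in drug-loaded MNs. HS replicate 1 was the lowest library for IL1R1 and HS replicate 2 the highest, so the ratio of decoy to signalling receptor overlapped (1.60 and 0.675 in HS, 1.89 and 1.47 in drug-loaded MNs). IL1RAP, the accessory chain shared by the receptors of this family, overlapped too, at 31.4 and 60.0 units in HS and 32.1 and 43.4 units in drug-loaded MNs.

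IL1RL1 is the receptor for interleukin-33, also known as ST2, and is carried by mast cells, type 2 lymphoid cells and regulatory T cells. It stood at 5.91 and 5.66 units in HS and at 13.9 and 11.6 units in drug-loaded MNs. The libraries within a group were close and the groups were apart. The log2 fold change was 1.02 (SE 0.27, limma unadjusted p 0.00646, adjusted p 0.344), and it stayed between 0.90 and 1.14 with any 1 library left out. The ligand gene IL33 was not analysed here. In RefSeq (assembly mOryCun1.1), where all 55 member symbols matched 1 gene each, IL18RAP, IL18R1, IL1RL1, IL1R1 and IL1R2 lie in 1 run of neighbouring genes. Of this run, IL18R1, IL1RL1 and IL1R2 had both treated libraries above both untreated ones, and IL1R1 and IL18RAP did not. With no filter, 25.2% of all genes had this order. IL18R1 reached the filter only through the treated group, and other runs of neighbouring members were not set out in this way.

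**Figure D2:**
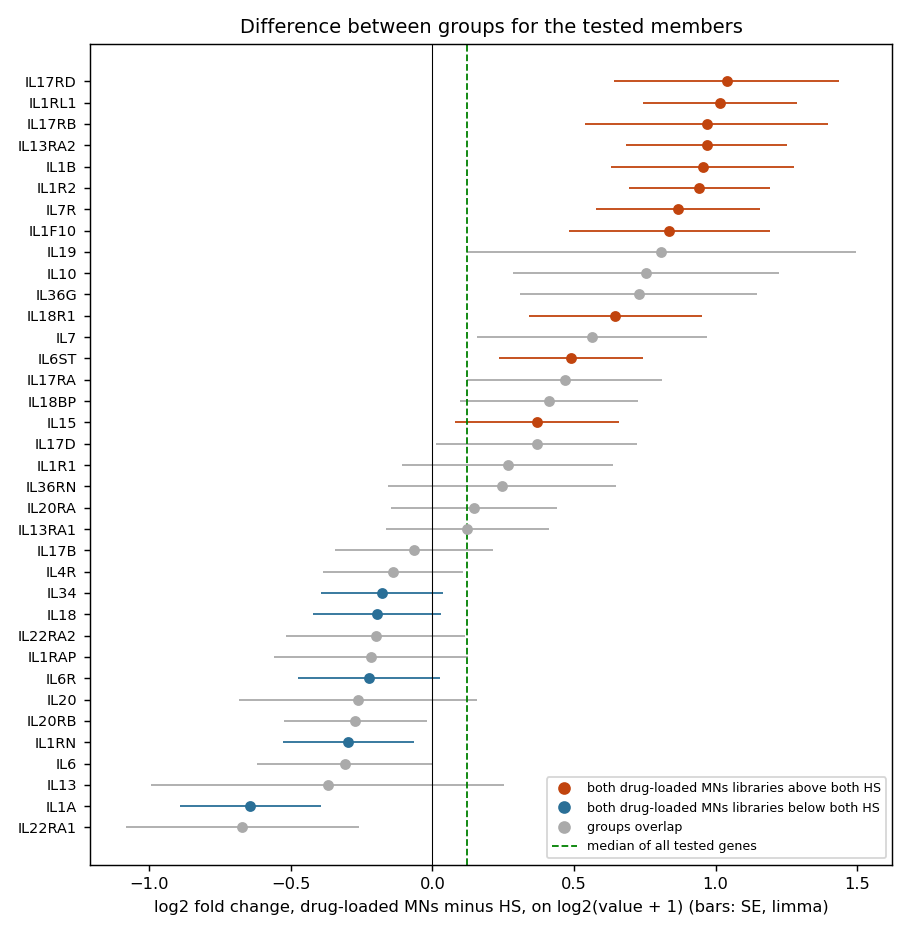
Log2 fold change of each of the 36 tested members (drug-loaded MNs minus HS, on log2(value + 1)), with bars for the standard error in limma. The dashed line marks the median of all tested genes at 0.12, and the coloured members are the 11 and 5 whose libraries did not overlap between groups. IL17RD lies highest at 1.04 and IL22RA1 lowest at -0.67.

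The remaining IL-1 family members were those of the interleukin-18 and interleukin-36 branches. IL18, which epithelial cells store as a precursor, stood at 75.3 and 62.5 units in HS and at 61.3 and 58.4 units in drug-loaded MNs. IL18BP, the secreted protein that neutralises it, overlapped between the groups, at 28.7 and 20.01 units in HS and 25.5 and 40.8 units in drug-loaded MNs. Within a library the ratio of IL18BP to IL18 was 0.382 and 0.320 in HS, against 0.415 and 0.698 after treatment, so it did not overlap. IL18R1, the ligand-binding chain of the interleukin-18 receptor, stood at 0.917 and 0.587 units in HS and 1.85 and 1.61 units in drug-loaded MNs. This gave a log2 fold change of 0.65 (limma unadjusted p 0.0701, adjusted p 0.638). IL18RAP, its partner chain, was below 0.34 units in every library.

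IL36G, an epidermal cytokine that activates keratinocytes, stood at 10.9 and 17.2 units in HS and at 15.3 and 35.3 units in drug-loaded MNs, which overlapped. Its antagonist IL36RN stood at 8.16 and 15.6 units in HS and at 9.93 and 18.6 units in drug-loaded MNs. In both genes, both libraries of replicate 2 lay above both of replicate 1, whatever the treatment. The ratio of IL36G to IL36RN was 1.33 and 1.10 in HS, against 1.54 and 1.90 after treatment. IL1F10, a family member counted as anti-inflammatory, was at 0.476 and 0.402 units in HS and at 0.984 and 2.32 units in drug-loaded MNs (log2 fold change 0.84, limma unadjusted p 0.0486, adjusted p 0.572). IL36A stayed below 0.58 units in every library, with both treated libraries above both untreated ones.

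Among the receptors for interleukin-4 and interleukin-13, the decoy was the chain whose groups did not overlap. IL13RA2, the chain that binds interleukin-13 with high affinity and is known mainly as a decoy, stood at 53.3 and 87.4 units in HS and at 125 and 145 units in drug-loaded MNs. All treated values were above all untreated values, with means of 70.3 ± 24.1 and 135 ± 14.7 (SD, n = 2 each). Its log2 fold change came to 0.97 (SE 0.28, limma unadjusted p 0.0101, adjusted p 0.380), and it was 0.62 without HS replicate 1. IL13RA1, the signalling chain, stood at 59.0 and 100 units in HS and at 82.9 and 85.1 units in drug-loaded MNs, with a log2 fold change of 0.12 that was -0.02 under median ratio scaling. IL4R, which pairs with IL13RA1, stood at 33.7 and 26.3 units in HS and 26.6 and 27.4 units in drug-loaded MNs.

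The ratio of IL13RA2 to IL13RA1 separated the groups with little spread in HS. It was 0.903 and 0.872 in HS, against 1.502 and 1.71 after treatment. On the log2 scale the difference of the means was 0.85, beside SDs of 0.0361 in HS and 0.131 in drug-loaded MNs (n = 2 each). This pair was chosen after its values were seen, and the difference was not tested. The ligand IL13 overlapped widely, at 24.0 and 15.1 units in HS and at 6.46 and 31.4 units in drug-loaded MNs, so its lowest and its highest library were both treated. IL4 was below 0.55 units in every library and was listed at 0 in HS replicate 2. IL5, an eosinophil growth factor and a genomic neighbour of IL13, was below 0.56 units in every library. IL31RA, a chain of the receptor for the itch cytokine interleukin-31, stood between 0.336 and 1.53 units.

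**Figure D3:**
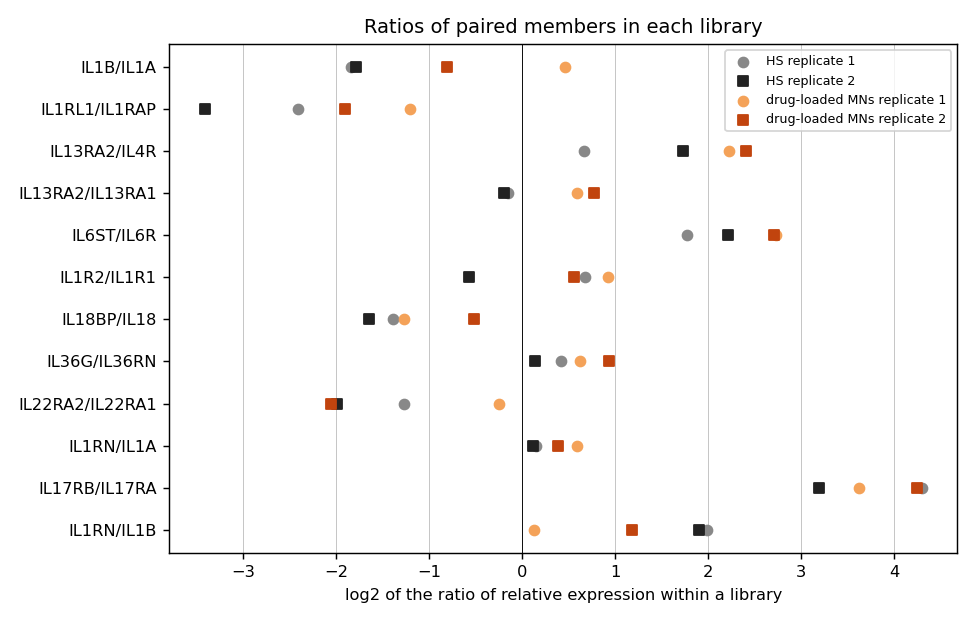
Log2 ratio of 12 pairs of members within each of the 4 libraries. The IL13RA2 to IL13RA1 ratio lies below 0 in both HS libraries and above 0 in both drug-loaded MNs libraries, while IL1R2 to IL1R1, IL17RB to IL17RA and IL22RA2 to IL22RA1 overlap.

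Of the common gamma chain cytokines, IL7 and IL15 and the receptor chain IL7R passed the filter with IL4R. IL7R, the interleukin-7 receptor of T cells and other lymphoid cells, stood at 3.08 and 2.54 units in HS and at 6.38 and 5.50 units in drug-loaded MNs. Both treated libraries were above both untreated ones. The log2 fold change was 0.87 (SE 0.29, limma unadjusted p 0.0183, adjusted p 0.428) and stayed between 0.76 and 0.97 with any 1 library left out. Its ligand IL7 overlapped, at 7.92 and 11.4 units in HS and at 21.9 and 9.57 units in drug-loaded MNs. IL15, which maintains resident memory T cells in skin, stood at 4.96 and 3.91 units in HS and at 6.55 and 5.48 units in drug-loaded MNs (log2 fold change 0.37, limma adjusted p 0.813). IL2 and IL21, cytokines of activated T cells, were below 0.45 units in every library, and the shared chain IL2RG was not analysed here.

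In the gp130 family, the libraries of the signalling chain and of the ligand-binding chain had opposite orders, but neither chain had an unadjusted p under 0.05 in limma. IL6ST encodes gp130, the chain through which interleukin-6, interleukin-11 and related cytokines signal. It stood at 54.1 and 79.3 units in HS and at 94.8 and 90.1 units in drug-loaded MNs, and the groups did not overlap (log2 fold change 0.49, SE 0.25, limma unadjusted p 0.0926, adjusted p 0.696). The fold change was 0.22 without HS replicate 1 and 0.76 without HS replicate 2. IL6R, the ligand-binding chain, was lower in both treated libraries, at 15.9 and 17.2 units in HS and 14.3 and 13.8 units in drug-loaded MNs. Its log2 fold change was small, at -0.22 (SE 0.25, limma unadjusted p 0.404, adjusted p 0.877). The ratio of IL6ST to IL6R was 3.41 and 4.62 in HS, against 6.65 and 6.55 after treatment. IL6 itself overlapped, at 15.2 and 10.1 units in HS and 11.4 and 8.47 units in drug-loaded MNs.

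The interleukin-17 receptors IL17RD, IL17RB and IL17RA all had fold changes above 0. IL17RD, a chain that also restrains fibroblast growth factor signalling, stood at 2.54 and 6.49 units in HS and at 10.7 and 8.58 units in drug-loaded MNs. The groups did not overlap, but HS replicate 1 was far below the rest. Its log2 fold change of 1.04 (SE 0.40, limma unadjusted p 0.0327, adjusted p 0.508) was 0.50 without HS replicate 1 and 1.58 when HS replicate 2 was left out. IL17RB, the receptor for interleukin-25, stood at 14.6 and 12.9 units in HS and at 17.0 and 45.2 units in drug-loaded MNs, so 1 treated library set its size. The fitted log2 fold change was 0.97 (SE 0.43, limma unadjusted p 0.0563, adjusted p 0.599) and was 0.29 without drug-loaded MNs replicate 2. IL17RA, the chain these receptors share, overlapped between 0.743 and 2.39 units.

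Of the interleukin-17 ligands, the tissue-derived ones passed the filter and overlapped. IL17B stood between 15.3 and 21.6 units and IL17D between 8.43 and 18.4 units. IL17A and IL17F, the cytokines of T helper 17 cells, were below 0.90 units everywhere, with both treated libraries above both untreated ones, and IL17A was listed at 0 in HS replicate 2. IL25, a ligand of IL17RB, had the opposite order to this receptor, at 0.602 and 0.705 units in HS and at 0.200 and 0.173 units in drug-loaded MNs. Its mean was below 1 unit, so it did not enter the test.

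The IL-10 family showed no separation of the groups among its 7 tested members. IL20RA and IL20RB, the chains of the keratinocyte receptor for interleukin-19, interleukin-20 and interleukin-24, overlapped. IL20RB stood at 104 and 145 units in HS and at 92.4 and 112 units in drug-loaded MNs, and IL20RA stood at 48.3 and 82.5 units in HS and at 66.7 and 73.6 units in drug-loaded MNs. IL22RA1, which carries interleukin-22 signals into keratinocytes, stood at 14.7 and 25.8 units in HS and at 8.12 and 17.2 units in drug-loaded MNs. Its log2 fold change of -0.67 was the lowest of the members (limma unadjusted p 0.144, adjusted p 0.743), and it ranged from -1.17 to -0.17 with 1 library left out, the extremes being the fits that dropped a treated library. Its soluble decoy IL22RA2 overlapped between 4.14 and 6.85 units.

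For the ligands IL22, IL19 and IL10, both replicate 1 libraries lay above both replicate 2 libraries. IL22 stood at 1.58 and 1.69 units in the replicate 1 libraries of HS and drug-loaded MNs and at 0.0873 and 0.143 units in their replicate 2 libraries. IL19 stood at 6.18 and 0.354 units in HS and at 4.78 and 4.16 units in drug-loaded MNs. IL10, the anti-inflammatory cytokine next to it in the genome, stood at 5.10 and 1.28 units in HS and 6.12 and 4.56 units in drug-loaded MNs. HS replicate 2 was the lowest library for both. IL20 overlapped between 3.89 and 9.71 units. IL23A, which sustains interleukin-22 producing cells, had the same order as IL22, at 1.12 and 0.171 units in HS and 1.59 and 0.485 units in drug-loaded MNs. Its receptor IL23R stood at 0.294 and 0.174 units in HS and at 1.71 and 0.610 units in drug-loaded MNs, a difference that was not in the test because its mean was below 1 unit. IL12RB2 stood between 0.584 and 1.21 units, and IL34, a ligand of the macrophage receptor CSF1R, stood at 68.3 and 75.2 units in HS and at 64.3 and 62.2 units in drug-loaded MNs.

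Of the 36 tested members, 4 had both replicate 1 libraries above both replicate 2 libraries (IL6, IL10, IL17D and IL19), and 9 had the reverse order, among them IL20RA, IL20RB, IL22RA1, IL36G, IL36RN and IL1RAP. Over all 9348 tested genes, 1693 and 1383 had these orders. Of the 19 members below the filter, 5 had at least 1 unit in some library (IL12RB2, IL22, IL23A, IL23R and IL31RA), and 8 were listed at 0 in at least 1 library.

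**Figure D4:**
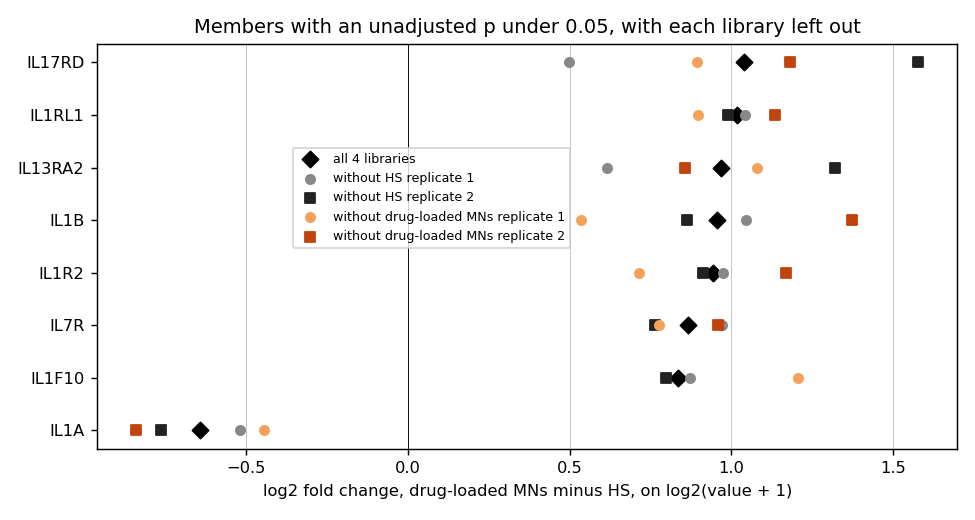
Log2 fold change (drug-loaded MNs minus HS, on log2(value + 1)) of the 8 members with an unadjusted p under 0.05, with all 4 libraries and with each library left out. IL1F10 has no point without drug-loaded MNs replicate 2, where its mean falls below the filter, and all points stay on the side of 0 given by all 4 libraries.

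Genes that signal with these receptors were followed in 5 lists, and none of their tested genes passed the adjusted threshold in limma. The lowest adjusted p was 0.359. Over all tested genes, 7.26% were higher and 1.39% lower at an unadjusted p under 0.05 in limma, and the median log2 fold change was 0.12. Counts in lists of 6 to 18 genes were too small to tell from these shares. The lists do not cover their pathways. MYD88, IRAK1, IRAK2 and the inflammasome genes were not analysed here, and neither were STAT6 and SOCS3. Among IL-1 receptor and Toll-like receptor adaptors and kinases, 1 of 6 tested genes was higher at an unadjusted p under 0.05 and none was lower (median log2 fold change 0.02). That gene was IRAK3, which inhibits IL-1 receptor signalling, at 4.47 and 4.72 units in HS and 8.71 and 8.70 units in drug-loaded MNs (log2 fold change 0.80, limma unadjusted p 0.0206, adjusted p 0.438). Among JAK, STAT and SOCS genes, 1 of 18 was higher, with a median of 0.19. This was SOCS2, a feedback inhibitor of cytokine receptors, at 18.3 and 12.6 units in HS and 26.1 and 27.1 units in drug-loaded MNs (limma adjusted p 0.467). The list of partners of the gp130 and related receptors also held CSF1R, the receptor of IL34, which does not pair with gp130. CSF1R was the only higher gene of the 6 tested. Its values were 20.4 and 19.2 units in HS and 35.9 and 35.6 units in drug-loaded MNs (limma adjusted p 0.359). It is counted again in the macrophage list below. The others, LIFR, OSMR, CLCF1, CNTFR and CNTF, had no unadjusted p under 0.05 in limma. None of the 10 NF-kB genes and none of the 7 interleukin-17 adaptors and epidermal targets had an unadjusted p under 0.05, with medians of -0.10 and -0.37. The lowest fold changes of the second list, in S100A8 and S100A9, rested on HS replicate 1. S100A8 stood at 153 and 12.6 units in HS and 13.6 and 32.3 units in drug-loaded MNs. S100A9 stood at 71.8 and 4.83 units in HS and 6.02 and 20.1 units in drug-loaded MNs.

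Markers of macrophages, T cells and fibroblasts moved with the members that were higher. The macrophage list (10 genes, none listed at 0 throughout) summed to 134 and 142 units in HS and to 318 and 311 units in drug-loaded MNs, and all of its 9 tested genes were higher at an unadjusted p under 0.05. The T cell list (4 genes) summed to 5.84 and 5.77 units in HS and 17.2 and 12.2 units in drug-loaded MNs, with 3 of 4 higher, while the defining CD3 genes were not analysed here. The fibroblast list (6 genes) summed to 22996 and 22526 units in HS and 44682 and 48616 units in drug-loaded MNs, with all 6 higher. The dendritic and Langerhans cell list (4 genes) did not overlap either, at sums of 4.47 and 5.27 units in HS and 5.63 and 6.32 units in drug-loaded MNs, but its 3 tested genes did not go one way. CCR7, a receptor of migrating dendritic cells, had a log2 fold change of 0.98 (limma unadjusted p 0.0127), and CD1A, a Langerhans cell marker, one of -0.93 (limma unadjusted p 0.0257). The B cell list (5 genes, 1 tested) summed to 0.774 and 0.602 units in HS and to 1.27 and 11.0 units in drug-loaded MNs, where 1 library and 1 gene, JCHAIN at 10.1 units, made up most of the sum. Over all tested genes, 7.26% were higher at an unadjusted p under 0.05 in limma. C1QB of the macrophage list, CD2 of the T cell list, CCR7 and JCHAIN passed the filter only through the drug-loaded MNs group. Their HS means were 0.863, 0.897, 0.845 and 0.411 units. CD1A passed it only through HS, with a mean of 0.494 units in drug-loaded MNs. For these genes the filter itself favoured the direction, and the counts above include them. None of these marker genes passed the adjusted threshold. Their part in the values of IL1B, IL1R2, IL7R, IL13RA2 and IL1RL1 was not tested.

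The sums of the mast cell, endothelial, keratinocyte and neutrophil lists overlapped between the groups. The mast cell list (5 genes) summed to 182 and 78.7 units in HS and to 112 and 263 units in drug-loaded MNs. IL17RB and IL13 were likewise highest in drug-loaded MNs replicate 2, and the part of mast cells in them or in IL1RL1 was not tested. Within the mast cell list, KIT did not overlap, at 33.2 and 23.2 units in HS and 43.5 and 53.2 units in drug-loaded MNs. Its log2 fold change was 0.77 (limma unadjusted p 0.0225, adjusted p 0.447). The other genes of the list, GATA2, FCER1A, HDC and MS4A2, overlapped. Suprabasal keratinocyte genes (4 genes) summed to 36817 and 52315 units in HS and 31363 and 41238 units in drug-loaded MNs, and basal ones (5 genes) to 8265 and 5718 units in HS and 7678 and 4040 units in drug-loaded MNs. Among the 5 tested basal genes 4 had a fold change below 0, as did 3 of the 4 suprabasal genes, and their part in the lower IL1A and IL1RN was not tested. The neutrophil list (3 genes) was highest in HS replicate 1 at 226 units and lay between 17.7 and 53.1 units elsewhere. In HS replicate 1, S100A8 and S100A9 made up nearly all of the sum, at 153 and 71.8 units, beside 0.662 units for MPO. S100A8 and S100A9 are also counted among the epidermal targets of interleukin-17 above, so the sum is not particular to neutrophils. The endothelial list (7 genes) summed to 206 and 213 units in HS and to 161 and 216 units in drug-loaded MNs. Its genes did not go one way. CDH5 (log2 fold change 0.92, limma unadjusted p 0.0221, adjusted p 0.445) and PECAM1 lay higher in both treated libraries. VWF (log2 fold change -0.50), the highest gene of the list, and TIE1 lay lower in both, and KDR, TEK and EMCN overlapped. The 5 dissociation response genes had fold changes below 0 (median -0.18), but none had an unadjusted p under 0.05 and 4 of them overlapped between the groups.

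**Figure D5:**
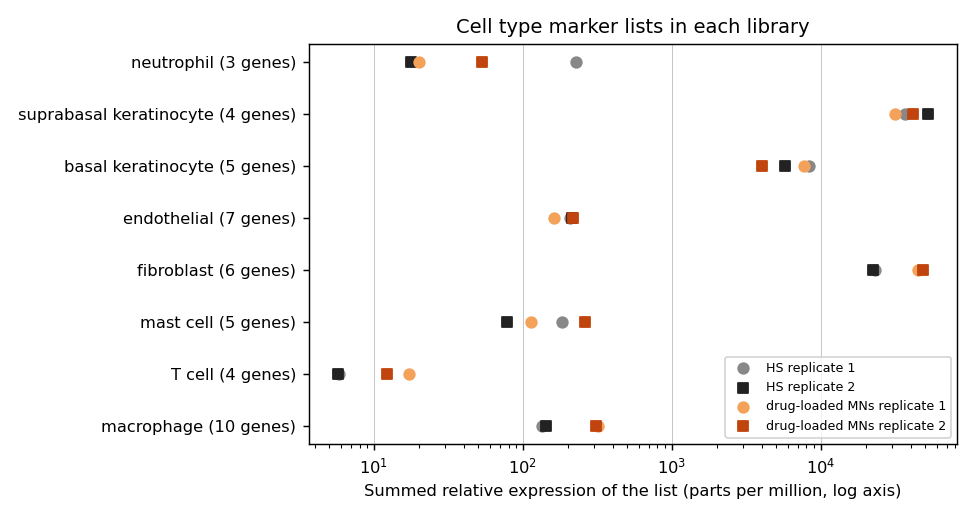
Summed relative expression of 8 cell type marker lists in each of the 4 libraries (log axis, units). The macrophage, T cell and fibroblast sums of both drug-loaded MNs libraries lie above those of both HS libraries, and the mast cell, neutrophil and keratinocyte sums overlap.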

How the data were processed

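Libraries were made with the 10x Genomics single cell method from dissociated ventral epidermis and dermis. According to the labels and methods, the authors processed reads with Cell Ranger (2.1.1 in the submitters' processing notes) and Seurat, filtered cells and report a correction of batch effects, and no source says whether the deposited values went through it. The notes list the mouse build mm10, although the table holds rabbit gene identifiers. The deposited signal values are 1 number per gene and library, named FPKM by the authors but summing to 10000 in each library. How cells were combined and doublets treated is not given in the sources used here. Of low values, up to 20 steps above the smallest, 18.6% to 21.7% lay within 0.1 of a whole step, so reads could not be recovered, depth was unknown and no count model, interval or detection floor was used.

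Values were rescaled to a total of 1000000, the 9348 genes whose mean reached 1 unit were kept, and log2(value + 1) was fitted with limma 3.58.1 (lmFit, eBayes with trend) under R 4.3.3, with no covariate. P-values were two-sided and adjusted over all kept genes by the Benjamini-Hochberg method. Fold changes on this scale understate those of low genes. The fit was tested on simulated data. There, 10% of genes with a true log2 fold change of 1 passed the adjusted threshold, and 92% of those with 2. The lack of members past the threshold therefore says little about changes near 1. Groups and replicate numbers came from the sample titles. Alternatives were other scalings, pseudocounts (0.1 and 5), filters (none and a mean of 5) and variance priors, the replicate block, and leaving out each library. Every kept member was named, others where a library reached 1 unit or a partner was kept, while IL1RAPL1, IL2, IL5, IL21 and IL36A were named after their values were seen. Members and lists were chosen with earlier results of these data known.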

Additional observations from a re-analysis of the deposited data

How the results depend on the processing

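The number of libraries limited the precision, and depth was unknown. Median ratio scaling took the median log2 fold change of all genes from 0.12 to -0.01 and quantile normalization took it to -0.02, so fold changes are to be read against that shift. Of the 36 tested members, 25 kept their direction in all alternatives that gave a value and 11 did not. No member passed the adjusted threshold in 13 of the 14 alternatives, and the exception was the replicate number as a block.

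Over all genes, 4 passed the threshold. None did under quantile normalization, median ratio scaling, the total without abundant genes, a pseudocount of 5 or no filter (0 genes each), 1 did with eBayes without trend, and 241 did with the replicate block. The count ranged from 0 to 75 with 1 library left out. With the replicate block, 2 members passed: IL13RA2 (limma adjusted p 0.0249, range over alternatives 0.0249 to 0.562) and IL1R2 (limma adjusted p 0.0487, range 0.0487 to 0.99996). The same-numbered libraries share only a number. Across genes, how far they lay from their group means correlated at 0.22, 2 pairs cannot establish a pairing, and the block left 1 residual degree of freedom. The number of members at an unadjusted p under 0.05 (8, beside 809 of all genes) was 14 with no filter (beside 1048), where 55 members were tested, 5 under quantile normalization (beside 727) and 13 with the replicate block (beside 1133), and it ranged from 4 to 10 with 1 library left out (beside 507 to 1409). The median of the tested members (0.32) was 0.18 under median ratio scaling, 0.14 under quantile normalization, 0.21 with a pseudocount of 5 and 0.14 with a minimum mean of 5, where 30 members were tested, and it ranged from 0.10 to 0.25 with 1 library left out. The cause was not tested.

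IL13RA1 was -0.018 under median ratio scaling. With 1 library left out, log2 fold changes that changed sign ranged from -1.43 to 0.69 for IL13, -0.25 to 0.50 for IL13RA1, -0.30 to 0.17 for IL17B, -0.39 to 2.01 for IL19, -0.31 to 0.84 for IL1R1, -0.67 to 0.24 for IL1RAP, -0.76 to 0.24 for IL20, -0.23 to 0.53 for IL20RA, -0.50 to 0.11 for IL22RA2, -0.19 to 0.68 for IL36RN and -0.31 to 0.034 for IL4R. A minimum mean of 5 removed IL1F10, IL7R, IL10, IL17RA, IL18R1 and IL19 from the fit, and IL1F10 was also out of it without drug-loaded MNs replicate 2.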

Other observations

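Of the 14 members with an unadjusted p under 0.05 in the unfiltered limma fit, those outside the filtered one were of low level, and none passed the adjusted threshold. IL5 stood at 0.0649 and 0.107 units in HS and at 0.300 and 0.550 units in drug-loaded MNs. IL17A stood at 0.136 and 0 units in HS and at 0.517 and 0.877 units in drug-loaded MNs. IL1RAPL1, a family member best known from neurons, stood at 0.0214 and 0 units in HS and at 0.173 and 0.216 units in drug-loaded MNs. Depth was unknown at these levels too.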
